A study of Mus musculus with 13 samples.

Results

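The genes described are those of the Cyp2b and Cyp3a subfamilies of cytochrome P450 and Por, the reductase that passes electrons to them. They were Cyp2b9, Cyp2b10, Cyp2b13, Cyp3a11, Cyp3a13, Cyp3a16, Cyp3a25, Cyp3a41a, Cyp3a44 and Por, found by the gene name that the scanner files give to each probe. Of these 10 genes, 9 had a probe under their own name, with 11 probes among the 39429 probes that were not controls. No probe was named Cyp3a41a, but the probe named Cyp3a41b lists transcripts of both Cyp3a41a and Cyp3a41b and is given in its place. A fit across all genes tested 19517 genes or unnamed transcripts.

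The study measured liver RNA of female C57BL6 mice aged 12 weeks on 13 one-colour Agilent arrays, one array per sample. The HFHS vehicle group (5 arrays) had received the high-fat diet that the labels call HFHS together with the vehicle. The ST pollutants group (5 arrays) had received the standard diet (ST) with a mixture of 4 pollutants, which the title of the series calls low-dose and the labels do not name. The ST vehicle group (3 arrays) had received the standard diet with the vehicle. No HFHS group with pollutants was analysed here. The labels call the samples biological replicates, and nothing there says whether each was 1 mouse or a pool.

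Cytochromes P450 of the Cyp2b and Cyp3a subfamilies sit in the endoplasmic reticulum of hepatocytes, where they oxidise drugs, pollutants, steroids and bile acids. Each catalytic cycle needs electrons from NADPH, which Por supplies to every microsomal P450, with cytochrome b5 (Cyb5a) as a second donor for some reactions. In mouse liver, Cyp2b10 is the classical target of the nuclear receptor CAR (Nr1i3) and Cyp3a11 that of PXR (Nr1i2), while Cyp2b9, Cyp2b13, Cyp3a41 and Cyp3a44 are known as female-predominant genes set by the growth hormone pattern.

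Signals at the 75th percentile lay between 782 and 1354 units, and 62.8% to 69.5% of probes on an array were well above background. All 16 hepatocyte markers were measured, each well above background on all 13 arrays. Several arrays stood apart. ST vehicle replicate 3 had the highest mean log2 level of the genes known as male-biased in mouse liver, 3.68, against 2.45 and 2.78 on the other ST vehicle arrays. HFHS replicates 3, 4 and 5 had mean log2 levels of pancreatic acinar markers of 4.03, 2.73 and 6.16, where the other 10 arrays lay between -3.82 and -2.37. The arrays came from 5 slides: slides 1, 2 and 5 held all 3 groups, and slides 3 and 4 held HFHS vehicle and ST pollutants arrays only.

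The probes are 60 bases long, and the neighbouring Cyp3a genes are so alike in sequence that a probe may read several of them. The probe of Cyp3a44 (mm9, chr5:146585717-146585776, minus strand) and that of Cyp3a41b (mm9, chr5:146319794-146319853, minus strand) overlap in 53 bases with 7 mismatches. That overlap is 86.8% identical, the closest between probes of these genes, and the levels of these probes, given below, had r = 0.438 (Spearman's rho = 0.648). The other mismatches lie in the part of the overlap that is not shown. The first 30 bases of the overlap are shown with their 2 mismatches in capitals:
Cyp3a44: cactgagctttctcagtgtctgtGcaAgtt
Cyp3a41b: cactgagctttctcagtgtctgtAcaGgtt
Cyp3a11 had a pair of probes. One (mm9, chr5:146666237-146666296, minus strand) lists Cyp3a11 and was the brighter. The other, whose position on mm9 is split over chr5:146672058-146673925, lists transcripts of Cyp3a11, Cyp3a41a, Cyp3a41b and Cyp3a44, and its whole sequence is shown because it is common to the group:
Cyp3a11, shared probe: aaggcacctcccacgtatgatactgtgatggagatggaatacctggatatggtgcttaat
The other probes of the members lie on mm9 at chr7:26711522-26711581 for Cyp2b10, chr7:26880905-26880964 for Cyp2b13 and chr7:26983484-26983543 for Cyp2b9, all on the plus strand. Those of Cyp3a13 lie at chr5:138335412-138335471 and chr5:138334265-138334324, that of Cyp3a16 at chr5:146197274-146197333 and that of Cyp3a25 at chr5:146788879-146788938, all on the minus strand. Por is read at chr5:136211122-136211181 on the plus strand. Whether a probe falls in coding sequence or beyond it was not analysed here.

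The promoter windows show how close the copies are upstream of their starts. They come from RefSeq on GRCm38.p6 and run from 250 bases before to 50 after each start, and all 10 members had one. Capitals mark the motifs searched on both strands. TATAAA is the letters of the TATA box and GGGCGG those that Sp1 family factors bind. AGGTCA, together with its variant AGTTCA, occurs in binding sites of nuclear receptors. Cyp2b13 and Cyp2b9 are identical at 298 of 300 positions (99.3%), and both hold AGGTCA at -138, counted from the start:
Cyp2b13 (chr7:26061245-26061544, plus strand): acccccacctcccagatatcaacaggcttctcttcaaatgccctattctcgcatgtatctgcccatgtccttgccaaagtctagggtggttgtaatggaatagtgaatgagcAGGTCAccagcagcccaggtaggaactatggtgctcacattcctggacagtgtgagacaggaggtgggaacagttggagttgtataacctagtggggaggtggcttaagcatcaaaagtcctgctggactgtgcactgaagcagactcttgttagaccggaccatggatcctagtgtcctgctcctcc
Cyp2b9 (chr7:26173159-26173458, plus strand): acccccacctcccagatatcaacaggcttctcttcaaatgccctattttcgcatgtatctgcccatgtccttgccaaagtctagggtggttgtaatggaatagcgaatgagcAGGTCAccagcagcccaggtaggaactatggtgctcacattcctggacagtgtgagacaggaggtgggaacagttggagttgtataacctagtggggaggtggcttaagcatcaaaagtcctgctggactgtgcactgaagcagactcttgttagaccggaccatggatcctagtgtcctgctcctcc
Cyp3a41a and Cyp3a44 are identical at 281 of 298 aligned positions (94.3%). Both hold TATAAA at -122, but AGTTCA, read on the other strand, stands at -130 in Cyp3a41a and AGGTCA at -150 in Cyp3a44:
Cyp3a41a (chr5:145720087-145720386, minus strand): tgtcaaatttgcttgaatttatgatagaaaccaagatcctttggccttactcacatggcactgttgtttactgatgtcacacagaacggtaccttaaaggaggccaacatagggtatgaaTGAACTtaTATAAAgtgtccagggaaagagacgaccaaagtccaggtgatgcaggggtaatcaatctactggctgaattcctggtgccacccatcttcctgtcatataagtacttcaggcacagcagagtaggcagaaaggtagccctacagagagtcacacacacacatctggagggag
Cyp3a44 (chr5:145805825-145806124, minus strand): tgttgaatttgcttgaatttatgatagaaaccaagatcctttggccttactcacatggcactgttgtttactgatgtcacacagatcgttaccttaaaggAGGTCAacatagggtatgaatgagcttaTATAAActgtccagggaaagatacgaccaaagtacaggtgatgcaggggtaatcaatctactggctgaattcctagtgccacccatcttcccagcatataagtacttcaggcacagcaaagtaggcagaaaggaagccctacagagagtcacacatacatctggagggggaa
The window of Por has the highest share of G and C among the members, 67.3%. TATAAA is absent from it, as it is from those of Cyp2b9, Cyp2b10, Cyp2b13, Cyp3a13 and Cyp3a25. GGGCGG has 4 copies in it over both strands and 1 in the window of Cyp3a11:
Por (chr5:135688895-135689194, plus strand): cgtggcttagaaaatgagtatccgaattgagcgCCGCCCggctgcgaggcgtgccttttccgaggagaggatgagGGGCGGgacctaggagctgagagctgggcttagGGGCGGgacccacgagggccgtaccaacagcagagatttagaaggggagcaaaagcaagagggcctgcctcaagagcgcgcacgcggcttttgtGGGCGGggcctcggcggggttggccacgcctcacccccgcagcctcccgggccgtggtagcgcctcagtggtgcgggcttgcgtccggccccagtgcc
Of the 32851 promoter windows, 35.7% hold GGGCGG, 13.6% TATAAA, 16.3% AGGTCA and 14.0% AGTTCA. These matches describe the letters of the windows and show no binding.

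Values below are log2 of the background-corrected signal minus the 75th percentile of its array. A level of 5 thus lies 5 log2 units above that percentile, and levels of different probes cannot be set against each other. Genes were tested with limma in 1 model of the 3 groups and called at an adjusted p under 0.05 after Benjamini-Hochberg adjustment over all genes. Of all genes, 0.687% were called between HFHS vehicle and ST vehicle, 0.984% between ST pollutants and ST vehicle, and 3.87% between HFHS vehicle and ST pollutants. Of the 9 members with a probe, these comparisons called 0, 1 and 0. The 1 call was Por, higher in ST pollutants, where 0.543% of all genes were called higher. Unadjusted p-values were under 0.05 for 1 member (Por), 2 members (Cyp3a44 and Por) and 2 members (Cyp3a25 and Por) in the same order of comparisons, against 12.1%, 12.1% and 18.3% of all genes. Median log2 differences over the members were 0.13, 0.10 and -0.02, beside -0.02, -0.01 and -0.00 over all genes. By the brightest probe of a gene, groups that did not overlap in either direction were seen for 0, 1 (Por) and 1 (Por) of the 9 members, against 9.15%, 8.32% and 6.93% of all genes. With each probe tested on its own, 0, 1 (Por) and 0 of the 11 probes were called, against 0.627%, 0.983% and 3.42% of all probes. All 11 probes were well above background on all 13 arrays, and none was saturated.

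Por, which carries electrons from NADPH to every microsomal P450, was higher in ST pollutants than in ST vehicle livers by 1.82-fold. Its log2 levels were 6.23, 5.94, 5.84, 5.90 and 5.91 in ST pollutants and 5.63, 5.43, 5.47, 5.52 and 5.70 in HFHS vehicle, against 5.23, 5.45 and 4.59 in ST vehicle. All 5 ST pollutants arrays were above all 3 ST vehicle arrays and above all 5 HFHS vehicle arrays, whereas HFHS vehicle and ST vehicle overlapped at 5.43 and 5.45. Among all genes, 3.92% had every ST pollutants array above every ST vehicle array. The log2 difference between ST pollutants and ST vehicle was 0.87 ± 0.16 (SE), with a 95% interval of 0.51 to 1.22 and an adjusted p of 0.0312. HFHS vehicle exceeded ST vehicle by 0.46 ± 0.16 (adjusted p = 0.265) and was below ST pollutants, with a difference of -0.41 ± 0.14 (adjusted p = 0.135), and neither passed the threshold. Without ST vehicle replicate 3 the difference between HFHS vehicle and ST vehicle was 0.21. Fewer cells of a type and less RNA per cell cannot be told apart in these bulk livers.

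**Figure D1:**
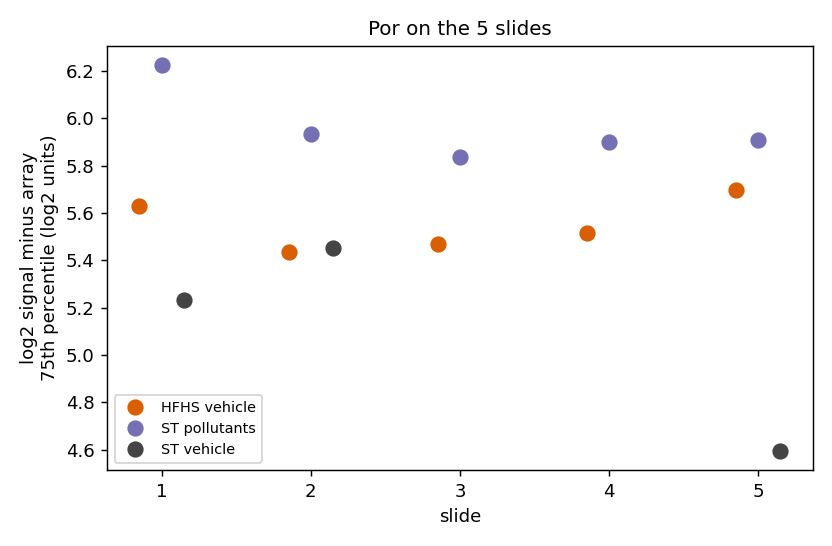
Por log2 level (signal minus the 75th percentile of the array, vertical axis) by slide (horizontal axis), with 1 point per array coloured by group. On each slide that held both, the ST pollutants array is above the HFHS vehicle array, and on slides 1, 2 and 5 it is also above the ST vehicle array.

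Within slides 1, 2 and 5 ST pollutants exceeded ST vehicle by 0.99, 0.48 and 1.32 log2 units. Within slides 1 to 5 HFHS vehicle differed from ST pollutants by -0.59, -0.50, -0.37, -0.39 and -0.21. The difference between HFHS vehicle and ST vehicle was 0.40, -0.02 and 1.104 on slides 1, 2 and 5, so that it turned on slide 2. With slide as a block the difference between ST pollutants and ST vehicle was 0.92, and its adjusted p was 0.0799. ST vehicle replicate 3 had the lowest Por level of all arrays, and without it the difference was 0.62 with an adjusted p of 0.0803. Without it the comparison of HFHS vehicle with ST pollutants, at -0.41, passed the threshold with an adjusted p of 0.0356. Over 26 other settings the ST pollutants difference from ST vehicle stayed between 0.62 and 1.05, and it was called in 10 and not in 16, with adjusted p-values between 0.0175 and 0.158. Leaving out any one of the 5 ST pollutants arrays also ended the call (0.0594, 0.0524, 0.0556, 0.0682 and 0.0644 without replicates 1 to 5), as did leaving out ST vehicle replicate 1 (0.0822) or HFHS replicate 2 (0.0518).

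Among the cell type marker lists, the sums of erythroid and endothelial markers separated ST pollutants from ST vehicle, and the others overlapped. The summed linear level of the 4 measured of 7 erythroid markers (Hbb-b1, Hba-a1, Alas2 and Slc4a1) was 111 to 144 in ST pollutants and 73.7 to 104 in ST vehicle. The sum of the 9 endothelial markers, all measured, was 46.1 to 54.0 in ST pollutants and 54.6 to 59.0 in ST vehicle. These ranges did not overlap. By mean log2 level the erythroid markers also did not overlap (2.41 to 2.97 against 1.98 to 2.32). The endothelial markers overlapped by that measure (0.98 to 1.22 against 1.04 to 1.27). The part of either list in the Por difference was not tested.

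The Cyp2b genes did not differ beyond the threshold in any comparison. Cyp2b10, the CAR target, had log2 levels of 5.83, 5.41, 5.92, 5.85 and 5.68 in ST pollutants and 5.87, 6.001, 5.89, 6.15 and 5.91 in HFHS vehicle, against 5.93, 5.97 and 5.40 in ST vehicle. The 3 groups overlapped. The log2 difference between ST pollutants and ST vehicle was -0.03 ± 0.15 with a 95% interval of -0.35 to 0.29, so that a change of more than 0.35 in either direction lies outside the interval. HFHS vehicle differed from ST vehicle by 0.20 ± 0.15 (adjusted p = 0.727). Without ST vehicle replicate 3, the lowest of all arrays, these differences were -0.21 for ST pollutants and 0.014 for HFHS vehicle.

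Cyp2b9, a female-predominant gene, had the highest mean in HFHS vehicle. Its levels were 2.91, 3.30, 2.96, 3.18 and 2.71 in HFHS vehicle and 2.66, 2.44, 2.87, 2.86 and 2.60 in ST pollutants, against 2.82, 2.99 and 2.19 in ST vehicle. HFHS vehicle was above ST pollutants within each of the 5 slides, by 0.09 to 0.86, although the groups overlapped. The difference was 0.32 ± 0.16 (adjusted p = 0.318), and that between HFHS vehicle and ST vehicle was 0.34 ± 0.18 (adjusted p = 0.520). Without ST vehicle replicate 3, which had the lowest level, the difference between HFHS vehicle and ST vehicle was 0.11, and that between ST pollutants and ST vehicle, 0.02 over all arrays, was -0.22.

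Cyp2b13, the close copy of Cyp2b9, had levels of 5.44, 5.54, 5.39, 5.72 and 5.63 in HFHS vehicle and 5.39, 5.25, 5.43, 5.45 and 5.13 in ST pollutants, against 5.49, 5.58 and 4.63 in ST vehicle. ST vehicle replicate 3 was again the lowest of all arrays. HFHS vehicle differed from ST vehicle by 0.31 ± 0.18 (adjusted p = 0.577), and by 0.01 without that array. ST pollutants differed from ST vehicle by 0.10 ± 0.18 (adjusted p = 0.930), and by -0.20 without it.

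**Figure D2:**
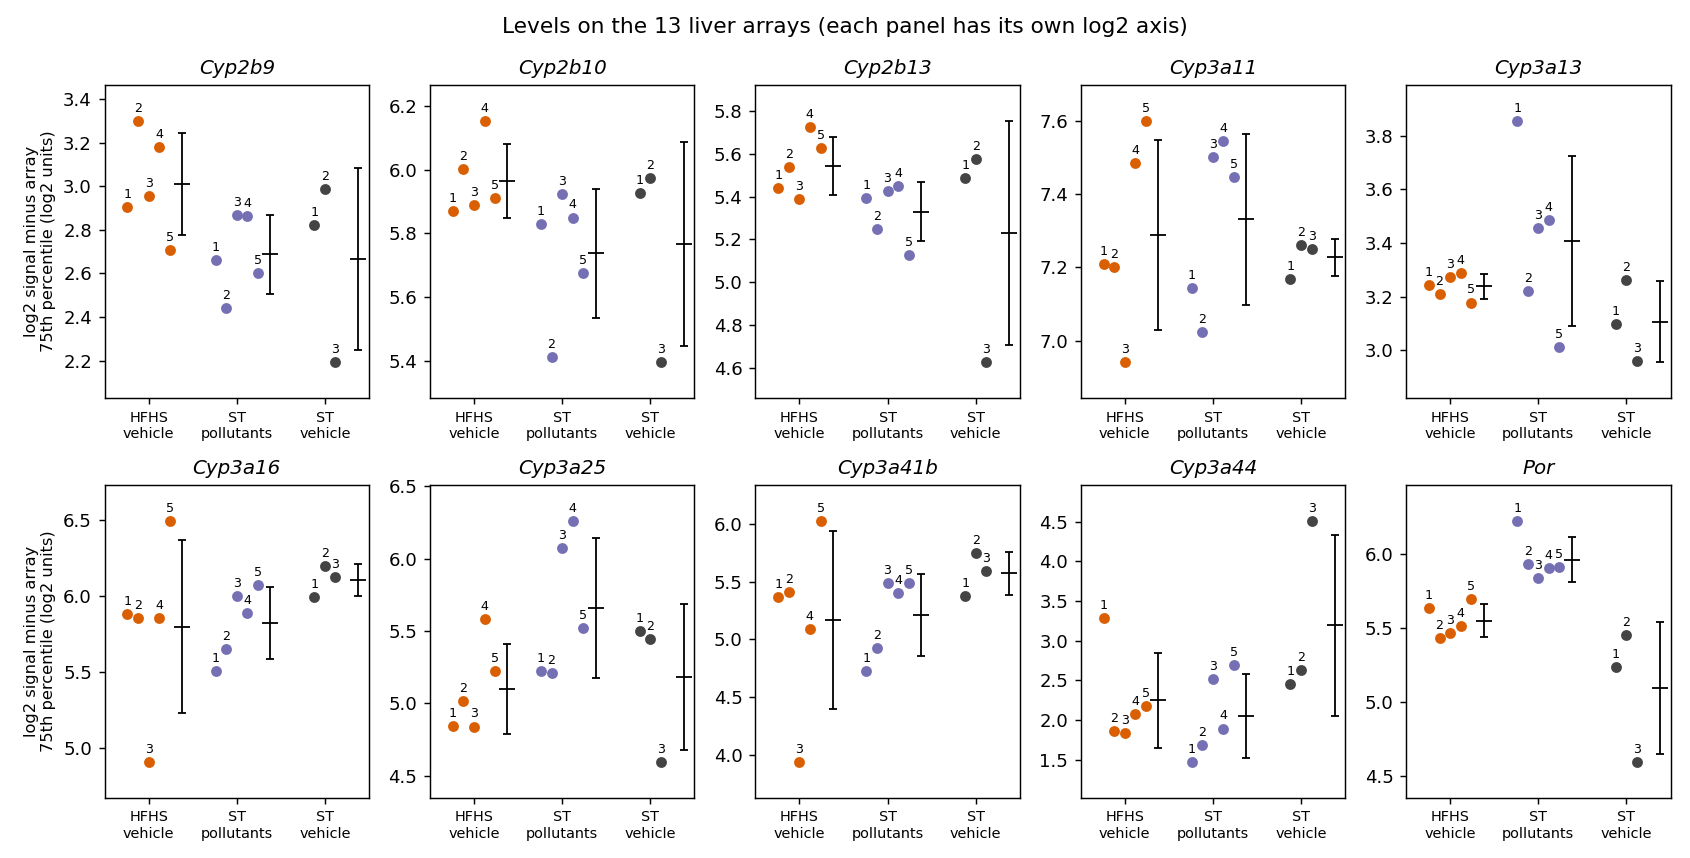
Log2 level of the brightest probe of each member and of the probe named Cyp3a41b (signal minus the 75th percentile of the array, vertical axes). The groups are HFHS vehicle, ST pollutants and ST vehicle, with 1 point per array and a bar at the group mean with its SD. Por is the member whose 5 ST pollutants points, 5.84 to 6.23, lie above all other points. By the probes shown, the other members overlap between groups.

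Among the Cyp3a genes, Cyp3a11, the main PXR target, was nearly level. By its brighter probe the levels were 7.21, 7.20, 6.94, 7.49 and 7.60 in HFHS vehicle, with a group mean of 7.29 ± 0.26 (SD, n = 5). ST pollutants averaged 7.33 ± 0.23 (n = 5), against 7.23 ± 0.05 in ST vehicle (n = 3), whose arrays had 7.17, 7.26 and 7.25. The log2 difference from ST vehicle was 0.06 ± 0.16 for HFHS vehicle (95% interval -0.28 to 0.40) and 0.10 ± 0.16 for ST pollutants (-0.24 to 0.45). The shared probe, which also lists transcripts of Cyp3a41a, Cyp3a41b and Cyp3a44, gave -0.16 and -0.10 for these comparisons, the opposite sign. The pair of probes thus gave no single direction, and the value of the shared one cannot be assigned to Cyp3a11 alone.

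Cyp3a44, a female-predominant gene, had the largest log2 differences from ST vehicle among the members over all arrays, and they did not pass the threshold. It had 1.48, 1.69, 2.52, 1.90 and 2.70 in ST pollutants and 3.28, 1.86, 1.84, 2.08 and 2.18 in HFHS vehicle, against 2.45, 2.63 and 4.51 in ST vehicle. ST vehicle replicate 3 stood far above the rest, and HFHS replicate 1 above the other HFHS arrays. ST pollutants differed from ST vehicle by -1.14 ± 0.48 (adjusted p = 0.350) and HFHS vehicle by -0.95 ± 0.48 (adjusted p = 0.477). Without ST vehicle replicate 3 these values were -0.49 and -0.29. Within slides 1, 2 and 5, ST pollutants differed from ST vehicle by -0.98, -0.94 and -1.82, whereas HFHS vehicle differed from ST vehicle by 0.83, -0.77 and -2.33.

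The probe named Cyp3a41b, which reads the female-predominant Cyp3a41 transcripts, had 5.37, 5.41, 3.94, 5.09 and 6.03 in HFHS vehicle and 4.73, 4.93, 5.49, 5.40 and 5.49 in ST pollutants, against 5.37, 5.74 and 5.59 in ST vehicle. HFHS replicate 3 was the lowest of all arrays and HFHS replicate 5 the highest. Cyp3a16, known from fetal and neonatal mouse liver, had its lowest and highest levels on these same arrays. It had 5.88, 5.85, 4.91, 5.86 and 6.50 in HFHS vehicle and 5.51, 5.65, 6.001, 5.89 and 6.08 in ST pollutants, against 5.99, 6.20 and 6.13 in ST vehicle. Differences from ST vehicle were -0.40 ± 0.36 for HFHS vehicle and -0.36 ± 0.36 for ST pollutants at Cyp3a41b (adjusted p = 0.818 and 0.808), and -0.31 ± 0.27 and -0.28 ± 0.27 at Cyp3a16 (0.803 and 0.794). Without HFHS replicate 3 alone, HFHS vehicle differed from ST vehicle by -0.097 at Cyp3a41b and -0.083 at Cyp3a16, and without HFHS replicates 3 to 5 by -0.18 and -0.24.

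Cyp3a25, an adult liver member of the subfamily, was highest on average in ST pollutants. It had 4.84, 5.02, 4.84, 5.58 and 5.22 in HFHS vehicle and 5.23, 5.21, 6.07, 6.26 and 5.52 in ST pollutants, against 5.50, 5.44 and 4.60 in ST vehicle. HFHS vehicle was below ST pollutants on each of the 5 slides, by differences of -1.23 to -0.20. The fitted difference was -0.56 ± 0.25 (95% interval -1.10 to -0.01), with an unadjusted p of 0.0463 and an adjusted p of 0.263. ST pollutants differed from ST vehicle by 0.48 ± 0.29 (adjusted p = 0.600), and by 0.19 without ST vehicle replicate 3.

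Cyp3a13, which mice express in intestine as well as liver, had 3.85, 3.22, 3.46, 3.49 and 3.01 in ST pollutants and 3.24, 3.21, 3.27, 3.29 and 3.18 in HFHS vehicle, against 3.10, 3.26 and 2.96 in ST vehicle. Its 5 HFHS vehicle arrays lay close together, and ST pollutants replicate 1 was the highest. ST pollutants differed from ST vehicle by 0.30 ± 0.15 (adjusted p = 0.482), and by 0.19 without ST pollutants replicate 1. Its dimmer probe gave a difference of 0.43 for the same comparison, with an unadjusted p of 0.0349 and an adjusted p of 0.348 over all probes. By that probe ST pollutants (0.74 to 1.61) did not overlap ST vehicle (0.43 to 0.68). By the brightest probe, 3.92% of all genes were separated in this direction.

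**Figure D3:**
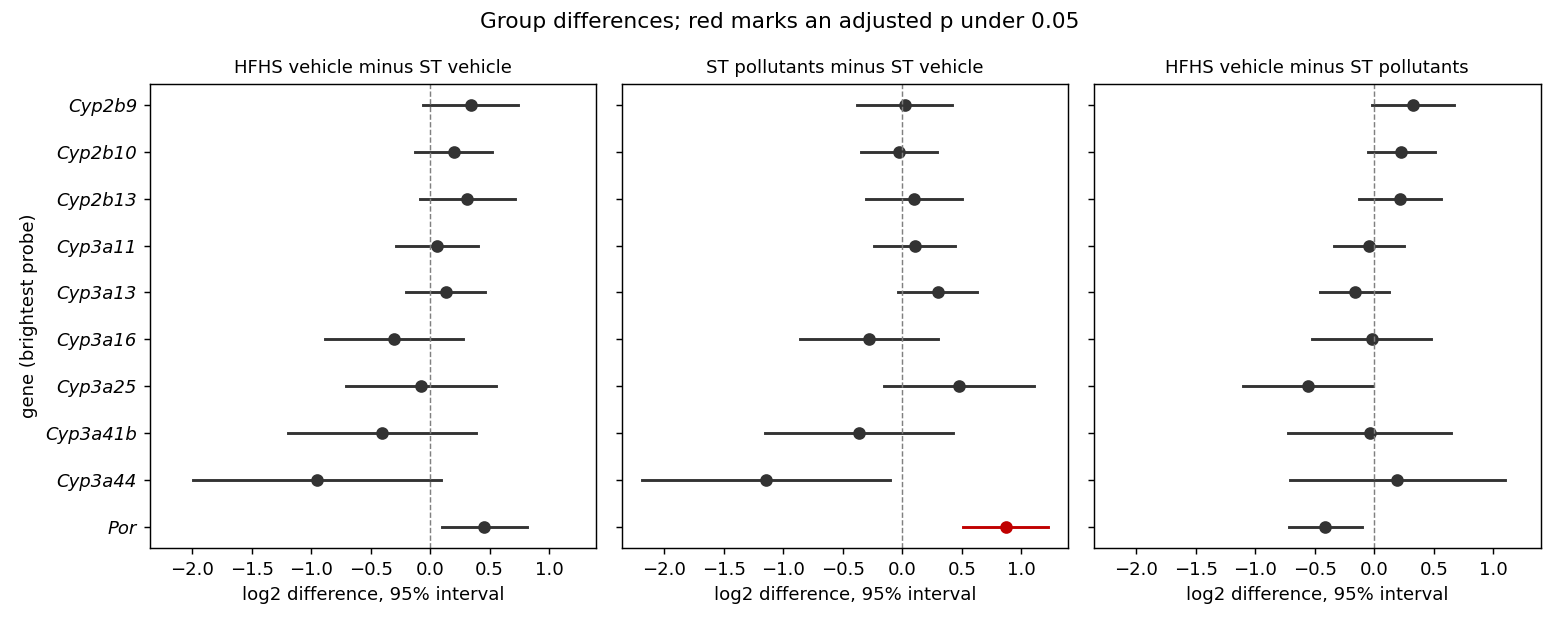
Log2 difference with its 95% interval (horizontal axis) for each member and Cyp3a41b (rows) in the 3 comparisons. In the panel of ST pollutants minus ST vehicle the interval of Por, 0.51 to 1.22, is the one whose gene was called, and that of Cyp3a44, -2.18 to -0.10, is the widest.

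In order of mean log2 level, Por ran from ST pollutants (5.96 ± 0.15, n = 5) through HFHS vehicle (5.55 ± 0.11, n = 5) to ST vehicle (5.09 ± 0.45, n = 3). Cyp2b9 (3.01 ± 0.23 in HFHS vehicle, 2.69 ± 0.18 in ST pollutants, 2.67 ± 0.42 in ST vehicle), Cyp2b10 and Cyp2b13 had their highest mean in HFHS vehicle, and Cyp3a16, Cyp3a41b and Cyp3a44 in ST vehicle. Cyp3a11, Cyp3a13 and Cyp3a25 had theirs in ST pollutants. No neighbours in these orders differed beyond the threshold in the fit. For the 28 differences other than those of Por between ST pollutants and each other group, Cyp3a41b included, 26 settings gave 728 values, of which 0 were called, and their smallest adjusted p was 0.139.

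Some probes of the members moved together across the 13 arrays, and a Cyp3a probe may read several of these genes. Probes that read the same transcripts and genes that change together cannot be told apart here. The correlations that follow are across arrays that share their labelling and slides, and they describe these arrays. For each pair, r was also taken without the 2 arrays farthest from the median of 1 of its probes. These arrays therefore differ between pairs, and arrays far out for the other probe may stay in. Cyp3a16 and Cyp3a41b had r = 0.985 (Spearman's rho = 0.940), and r = 0.950 without the 2 arrays chosen on Cyp3a16. Cyp2b9 and Cyp2b10 had r = 0.903 (rho = 0.863, 0.801 without 2 arrays), and Cyp2b10 and Cyp2b13 r = 0.867 (rho = 0.857, 0.907 without the same 2 arrays). Both pairs had these arrays chosen on Cyp2b10. The shared probe of Cyp3a11 followed Cyp3a16 (r = 0.944, rho = 0.813, 0.843 without 2 arrays) and Cyp3a41b (0.939, 0.786 and 0.812) more closely in r than it followed the other Cyp3a11 probe (0.806, 0.824 and 0.703). Cyp3a44, despite the likeness of its probe and promoter to those of Cyp3a41, had r = 0.438 with Cyp3a41b (rho = 0.648). Without 2 arrays chosen on Cyp3a41b, r was 0.306, and ST vehicle replicate 3, the farthest array of Cyp3a44, stayed in. With Cyp3a16, Cyp3a44 had r = 0.436 and rho = 0.747, and r = 0.681 without 2 arrays chosen on Cyp3a16. Its likeness to these probes thus depends on the measure and the arrays. The correlation of Cyp3a44 with Por was -0.721, with rho = -0.418 and -0.372 without 2 arrays chosen on Cyp3a44, and so rests in part on those arrays.

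**Figure D4:**
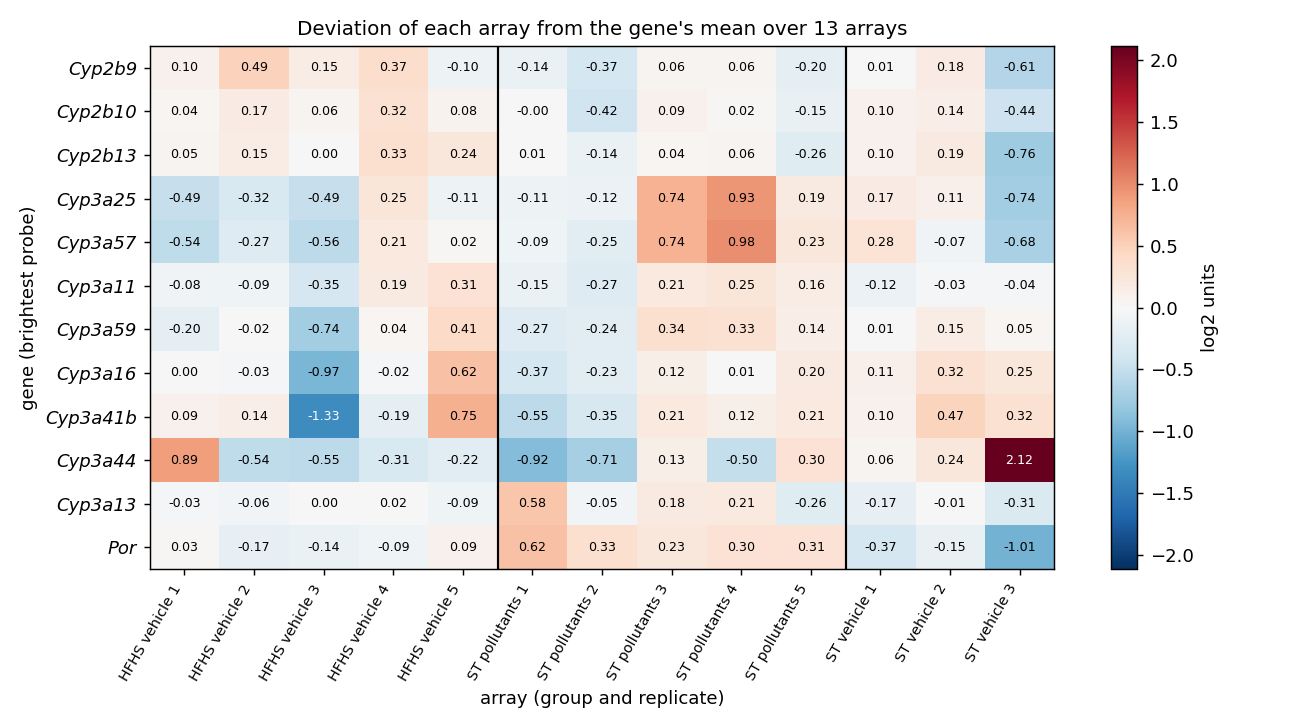
Deviation of each array's log2 level from the mean of all 13 arrays (colour scale, log2 units) on the HFHS vehicle, ST pollutants and ST vehicle arrays (columns). The rows are the members and the other genes Cyp3a41b, Cyp3a57 and Cyp3a59, each by its brightest probe. HFHS replicate 3 is low for Cyp3a16 and Cyp3a41b (levels 4.91 and 3.94), and ST vehicle replicate 3 is low for Por and Cyp2b13 (4.59 and 4.63) and high for Cyp3a44 (4.51).

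The 5 other genes of these subfamilies on the array were Cyp2b19, Cyp2b23, Cyp3a41b, Cyp3a57 and Cyp3a59. Cyp2b19 was well above background on 1 array and Cyp2b23 on 0. Cyp3a57 had the pattern most like that of Cyp3a25, with r = 0.983 (rho = 0.962, 0.956 without 2 arrays), and 0.976 after group means were subtracted. Its levels were 3.58, 3.86, 3.57, 4.33 and 4.14 in HFHS vehicle and 4.03, 3.88, 4.87, 5.10 and 4.36 in ST pollutants, against 4.41, 4.05 and 3.45 in ST vehicle. The brighter probe of Cyp3a59 followed Cyp3a11 (r = 0.886, rho = 0.929, 0.832 without 2 arrays), whereas its dimmer probe had r = 0.525 with the brighter one and 0.942 with Cyp3a25. Whether probes that moved together read the same transcripts was not tested. Outside the subfamilies, the pattern most like that of Por over the 13 arrays was that of Acot4, a peroxisomal thioesterase (r = 0.947, and 0.887 after group means were subtracted), followed by 2310081J21Rik (0.939) and Nampt, an enzyme of NAD synthesis (0.931). Cd1d2 was the gene most like both Cyp2b9 (0.919) and Cyp2b10 (0.906), Rpain was most like Cyp2b13 (0.916), and Gbp5 was most like Cyp3a44 (0.918).

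The receptors and partners of the pathway were tested in the same fit. Nr1i3, the receptor CAR, had levels of 4.35, 4.06, 4.34, 4.26 and 4.07 in ST pollutants and 4.10, 3.74, 4.06, 3.82 and 3.99 in HFHS vehicle, against 3.90, 3.82 and 3.45 in ST vehicle. Every ST pollutants array was above every ST vehicle array, as for 3.92% of all genes, but the difference of 0.49 ± 0.13 did not pass the threshold (adjusted p = 0.0967). Without ST vehicle replicate 3, the lowest of all arrays for Nr1i3, that difference was 0.36. Nr1i2, the receptor PXR, differed from ST vehicle by -0.12 in HFHS vehicle and by 0.31 in ST pollutants, and Cyb5a by -0.02 and 0.05, and none was called. Without ST vehicle replicate 3 the Nr1i2 differences were -0.35 and 0.085. Of 26 regulators of P450 genes measured of 26 listed, and of 11 electron transfer partners of 12 listed, 0 were called in any comparison.

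Alas1, the rate-limiting enzyme of the synthesis of heme, the cofactor of every P450, rose in both challenged groups. It had 6.54, 7.11, 6.89, 7.04 and 7.45 in HFHS vehicle and 7.51, 7.26, 7.30, 7.17 and 7.78 in ST pollutants, against 5.27, 5.90 and 5.41 in ST vehicle. All 10 arrays of the challenged groups were above the 3 ST vehicle arrays. The difference from ST vehicle was 1.48 ± 0.21 in HFHS vehicle (2.78-fold, adjusted p = 0.0115) and 1.88 ± 0.21 in ST pollutants (3.67-fold, adjusted p = 0.00358). Over 26 settings it was called in 20 for HFHS vehicle, with adjusted p-values of 0.00559 to 0.134, and in 26 for ST pollutants. For HFHS vehicle, leaving out ST vehicle replicate 1 (1.35, adjusted p = 0.0589), ST vehicle replicate 3 (1.42, adjusted p = 0.0517) or HFHS replicates 3 to 5 (1.29, adjusted p = 0.134) ended the call.

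Of 45 listed targets of CAR and PXR, 40 were measured. Between HFHS vehicle and ST vehicle, 1 rose (Alas1) and 2 fell, with a median difference of -0.19. Those that fell were Ces2a, a carboxylesterase (-0.73 ± 0.12, adjusted p = 0.0229), and Cyp1a2, which is known better as a target of the aryl hydrocarbon receptor (-0.87 ± 0.17, adjusted p = 0.0401). Over 26 settings they were called in 16 and in 10. Between ST pollutants and ST vehicle 2 rose and 0 fell, with a median of 0.04. These were Alas1 and Tsku, a secreted leucine-rich protein (0.84 ± 0.17, adjusted p = 0.0406), the second called in 10 of 26 settings. Between HFHS vehicle and ST pollutants Ces2a was lower (-0.72 ± 0.11, adjusted p = 0.00586), called in 25 of 26 settings, with a median of -0.19 over the list. Leaving out 1 array ended the call of Ces2a against ST vehicle for HFHS replicates 2 and 5 and each ST vehicle array, with adjusted p-values of up to 0.0879. It ended that of Cyp1a2 for each HFHS and ST vehicle array and ST pollutants replicates 1, 3 and 4 (up to 0.152), and that of Tsku for HFHS replicate 1 and each ST vehicle and ST pollutants array (up to 0.145). Between HFHS vehicle and ST vehicle, summed markers of enterocytes (80.7 to 108 against 53.7 to 59.6, 8 of 12 measured), of T and B cells (13.8 to 18.5 against 20.1 to 29.7, 10 of 11) and of cholangiocytes (1.43 to 1.84 against 2.23 to 2.45, 6 of 7) did not overlap. Median log2 differences of these markers were 0.03 for enterocytes (5 of 8 positive), -0.11 for T and B cells (2 of 10) and -0.57 for cholangiocytes (0 of 6). The higher enterocyte sum was thus not a rise across that list. The mean log2 level of 11 pericentral hepatocyte markers of 12 was 3.50 to 3.61 in HFHS vehicle and 3.64 to 3.70 in ST vehicle, although their sums overlapped (565 to 767 against 684 to 723). Cyp1a2 is 1 of these markers. The part of these lists in the differences was not tested.

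Since several members are female-predominant, the lists of sex-biased liver genes were set beside them. Of 32 female-biased genes measured of 35, Cyp7a1, which sets the rate of bile acid production from cholesterol, rose by 1.99 ± 0.29 log2 units in HFHS vehicle relative to ST vehicle (adjusted p = 0.0125), and Nipal1, a magnesium transporter, was lower (-1.05 ± 0.17, adjusted p = 0.0185). In ST pollutants Fmo2, a flavin monooxygenase (0.89 ± 0.15, adjusted p = 0.0199), and Acot4 (0.95 ± 0.17, adjusted p = 0.0290) rose relative to ST vehicle. HFHS vehicle exceeded ST pollutants in the P450 Cyp2d40 (0.73 ± 0.14, adjusted p = 0.0121) and in Hao2, a peroxisomal hydroxyacid oxidase (1.71 ± 0.37, adjusted p = 0.0280). Leaving out 1 array ended the call of Cyp7a1 for ST vehicle replicate 1 (adjusted p = 0.0589), of Nipal1 for ST vehicle replicates 2 and 3 (up to 0.0959) and of Fmo2 for ST vehicle replicates 1 and 3 (up to 0.0739). It ended that of Acot4 for ST vehicle replicates 1 and 3 and ST pollutants replicates 1, 4 and 5 (up to 0.0844), and that of Hao2 for 4 HFHS arrays (replicates 1, 2, 3 and 5) and 4 ST pollutants arrays (replicates 1, 3, 4 and 5; up to 0.0682). Of 31 male-biased genes measured of 37, 0 were called against ST vehicle, and 1, Cyp2u1, was lower in HFHS vehicle than in ST pollutants (-0.81 ± 0.14, adjusted p = 0.00875). The median difference of the male-biased genes was -0.27 for HFHS vehicle and -0.23 for ST pollutants against ST vehicle, whose replicate 3 stands apart in this list. In HFHS vehicle 2 of 31, and in ST pollutants 4 of 31, had a positive difference. Over all genes the median differences were -0.02 and -0.01. Whether the lower values of this list rest on ST vehicle replicate 3 was not tested. The part of that array's level in the differences of Cyp2b13, Cyp3a44 and Por was not tested beyond the values given without it.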

How the data were processed

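Liver RNA of 13 samples was hybridised to one-colour (Cy3) Agilent arrays. The deposited intensity values, per the file headers and the submitters' processing notes, came from Agilent Feature Extraction 11.5.1.1, which corrects each spot's signal for background within its array, and the header places the probes on mm9. The authors also deposited a table of 26082 probes on a log2 scale. Its array medians are 9.28 to 9.30, each of its 13 columns matched its own array best, its normalization is not given in the sources used here, and it served as an alternative. The submitters' processing notes name limma.

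From the intensity values, log2 levels were computed minus the 75th percentile of each array over 39429 probes, with spots of one probe averaged and flagged outlier spots (128 spots of tested probes) left out. A probe was kept (25028) if all arrays of 1 or more groups had it well above background, the brightest probe stood for a gene, and 19517 genes or unnamed transcripts were fitted in limma 3.58.1 (R 4.3.3; lmFit and eBayes, the 3 groups in 1 model), with Benjamini-Hochberg adjustment over all of them and calls at 0.05. Of these, 15708 have a symbol in the gene table. The procedure was tested on simulated data. Alternatives were normexp with an offset of 50, scaling by the median or by quantiles, the deposited table, no filter, the mean over a gene's probes, slide or replicate number as a block, fits of 2 groups, and fits without single arrays or sets of arrays. The number of arrays limits the precision.

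The members and gene lists were chosen with earlier results of these data known. The genes named were all members, Nr1i2, Nr1i3, Cyb5a and Alas1, at most the 4 called genes of smallest p per list and comparison, and the 3 genes of most like pattern per member, of which the text gives a part. Promoters are RefSeq windows on GRCm38.p6, aligned with Biopython 1.88.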

Additional observations from a re-analysis of the deposited data

Results flagged for a closer look

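In 24 sets of 5 arrays (each probe of the members and that of Cyp3a41b, in HFHS vehicle and in ST pollutants), 2 had an array whose distance from its nearest neighbour was above Dixon's critical share of the whole range. Chance alone gives about 1 in 20 such sets. One was Cyp3a44 in HFHS vehicle, where replicate 1 had a log2 level of 3.28 and the other 4 arrays 1.84 to 2.18. The other was Por in ST pollutants, where replicate 1 had 6.23 and the other 4 arrays 5.84 to 5.94. Without ST pollutants replicate 1 the difference of Por from ST vehicle had an adjusted p of 0.0594.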

How the results depend on the processing

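Counts of called genes moved with the processing. Between HFHS vehicle and ST vehicle (134 genes) they were 45 with normexp, 68 with median scaling, 55 with no filter, 84 with slide as a block, 25 with those 2 groups alone, 9 without the arrays of slide 1, 15 without HFHS replicates 3 to 5, and 29 to 135 without single arrays. Between ST pollutants and ST vehicle (192 genes) they were 22, 48, 70, 67, 40, 18 and 82 under the same settings, and 42 to 172 without single arrays. Between HFHS vehicle and ST pollutants (756 genes) they were 292 with normexp, 323 with median scaling, 361 with no filter, 1 without slide 1, 297 without HFHS replicates 3 to 5, and 348 to 692 without single arrays. With normexp, 87 genes were higher and 205 lower in HFHS vehicle than in ST pollutants, against 307 and 449 in the main setting. The members called between ST pollutants and ST vehicle (1, Por) became 0 under each of these settings, with adjusted p-values for Por of 0.152 with normexp, 0.0733 with median scaling, 0.0722 with no filter, 0.0799 with the slide block, 0.138 with 2 groups alone, 0.158 without slide 1 and 0.0894 without HFHS replicates 3 to 5, and 0 to 1 without single arrays. Between HFHS vehicle and ST pollutants 1 member, Por, was called with 2 groups alone (adjusted p = 0.0444), and 0 to 1 without single arrays.

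Samples of the same replicate number correlated in their deviations from the group means between -0.168 and 0.560, above 0.1 in 8 of 11 pairs, and were not taken as paired. Of these pairs 9 also shared a slide, and pairs on 1 slide, whatever their number, were above 0.1 in 10 of 11 (-0.0225 to 0.560), against 7 of 44 on different slides (-0.405 to 0.267). With replicate number as a block, 53 and 44 genes were called against ST vehicle in HFHS vehicle and ST pollutants, 0 members were called in ST pollutants, and Por differed there by 0.87 (adjusted p = 0.0803).

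Of 780 values (30 differences of the members and of Cyp3a41b under 26 settings), 37 turned direction, over 11 differences, none of them called. For HFHS vehicle minus ST vehicle, Cyp3a11 had -0.10 with normexp, -0.048 with the mean of probes, -0.079 with the replicate block, -0.022 without HFHS replicates 3 to 5 and -0.018 to 0.15 without single arrays. Cyp3a13 had -0.029 with normexp, and Cyp3a25 had 0.15 without slide 1 and -0.37 to 0.081 without single arrays. For ST pollutants minus ST vehicle, Cyp2b9 had -0.058 with the slide block and -0.22 to 0.18 without single arrays, Cyp2b10 0.030 without slide 1 and -0.21 to 0.076, Cyp2b13 -0.20 to 0.27, and Cyp3a11 -0.035 with the replicate block. For HFHS vehicle minus ST pollutants, Cyp3a11 had 0.08 with quantiles, 0.062 in the authors' deposited table and -0.12 to 0.042 without single arrays. Cyp3a16 had 0.077 with quantiles, 0.071 in the authors' deposited table, 0.044 without HFHS replicates 3 to 5, and -0.20 to 0.20. Cyp3a44 had -0.21 without slide 1 and -0.067 to 0.35, and Cyp3a41b 0.0079 with quantiles, 0.18 without HFHS replicates 3 to 5 and -0.26 to 0.27. Of the other genes, between HFHS vehicle and ST vehicle Cyb5a had 0.037 with quantiles, 0.094 in the authors' deposited table, 0.024 with the slide block and -0.097 to 0.029 without single arrays, and Nr1i2 -0.35 to 0.059. The causes were not tested, and the fits that leave arrays out also have fewer arrays.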
